A study of Homo sapiens with 32 samples.

Results

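The miR-548 family is a large set of human miRNAs whose hairpins arose from MADE1, a short palindromic relic of a mariner DNA transposon. Because the ends of MADE1 are inverted repeats, an RNA copy of the element folds back on itself into a long hairpin. The members were taken as all rows of the deposited count table whose name starts with mir-548, which gave 53 of the 1513 miRNA rows. Each row counts the reads of a hairpin name, so both arms of a hairpin, and all copies of it that carry the same name, share a row. A mean of at least 10 counts over the 32 libraries was reached by 38 members, among 477 rows in the whole table. The other 15 members fell under that minimum and entered no test. Mean counts ran from 822.8 for mir-548h down to 0.2 for mir-548m, with mir-548ac at 12.6 and mir-548ap at 10.7 just above the minimum and mir-548ak at 9.5, mir-548p at 9.2, mir-548al at 9.1 and mir-548ar at 8.4 just under it.

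The libraries came from 293T, a transformed human kidney cell line that takes up plasmids readily. The 4 wild-type clones were 52, 55, 57 and 67. The 4 deletion clones, 30, 34, 42 and 43, carried the genotype DGCR8 delta103-126Q, a prime-editing deletion of the reported ERH binding site of DGCR8. Each clone received 4 transient shRNA vectors, namely control shRNA_1, control shRNA_2, shERH_1 and shERH_2, was selected with puromycin and was sorted on day 5 for a fluorescent marker on the vector. All clones thus went through transfection, selection and sorting, and the clones are the replicates. P-values of the genotype comparisons measure the spread between clones. Those of comparisons between shRNAs, made within clones, measure how much the change differs from clone to clone. ERH and DGCR8 transcripts were not analysed here, so neither the knockdown nor the deletion was checked. The miRNA hairpin is normally cut from its primary transcript by the Microprocessor, a complex of the nuclease DROSHA and its RNA-binding partner DGCR8. ERH is a small nuclear protein that binds DGCR8 and is known for helping the Microprocessor process suboptimal hairpins that lie beside a better one in the same transcript. The comparisons asked how the miR-548 rows differed when the ERH contact was deleted, when ERH was targeted, and when both were done.

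Mature sequences from RefSeq (GRCh38.p14) were matched for 30 of the 38 tested members, with 38 mature sequences and 22 different seeds among them. A member without a match may still have a sequence in RefSeq. They are shown because the seeds group the family and the shared letters decide which rows can be told apart. Capitals mark the seed, bases 2 to 8 counted from the 5′ end. The seed AAAGUAA was carried by 8 tested rows, of which 5 are printed here.
miR-548b-5p: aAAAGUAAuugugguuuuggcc
miR-548aq-5p: gAAAGUAAuugcuguuuuugcc
miR-548j-5p: aAAAGUAAuugcggucuuuggu
miR-548ab: aAAAGUAAuuguggauuuugcu
miR-548y: aAAAGUAAucacuguuuuugcc
The seed AAAAACU, from the opposite arm, was carried by 6 rows, and 4 are printed.
miR-548aq-3p: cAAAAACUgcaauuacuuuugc
miR-548am-3p: cAAAAACUgcaguuacuuuugu
miR-548ae-3p: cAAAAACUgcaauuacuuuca
miR-548j-3p: cAAAAACUgcauuacuuuugc
Other matched sequences of abundant members had seeds found in 1 or 2 rows.
miR-548e-5p: cAAAAGCAaucgcgguuuuugc
miR-548c-3p: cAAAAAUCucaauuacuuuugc
miR-548ay-3p: cAAAACCGcgauuacucuugca
miR-548o-3p: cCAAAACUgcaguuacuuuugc
miR-548bc: aAAAACUGugauuacuuuugc
miR-548k: aAAAGUACuugcggauuuugcu
miR-548l: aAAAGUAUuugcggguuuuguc
The 5p mature sequence was the same 23 bases in mir-548aj, mir-548g and mir-548x, so the reads of these 3 rows cannot be told apart at that arm and their values are uncertain. Other pairs of matched sequences share runs of 17 to 20 bases without being the same. Among them are mir-548ae with mir-548aq, mir-548am with mir-548o and mir-548ab with mir-548n. Arms without a matched sequence were not compared, so more rows may share a mature sequence. How the counting placed reads that fit several rows is not given in the sources used here. Reads may therefore also be divided between rows that share sequence.
miR-548aj-5p, miR-548g-5p and miR-548x-5p: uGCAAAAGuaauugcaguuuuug

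The inverted repeat can be read in the hairpin of mir-548as, the only tested member for which a RefSeq hairpin was matched here. It lies at chr13:92490163-92490220 on the plus strand of GRCh38.p14, within an intron of GPC5, and its 58 bases hold both mature arms, shown in capitals.
mir-548as: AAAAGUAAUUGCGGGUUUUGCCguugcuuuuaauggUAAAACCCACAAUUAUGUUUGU

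Several hairpin properties set the members beside the other miRNAs. The members were chosen by name, and a family name goes with shared sequence. Shared letters and similar base content are therefore partly built into the choice. Hairpin loci in GENCODE 29 (GRCh38, not stated to be the build behind the counts) were matched for 37 of the 38 tested members and 434 of the 439 other tested rows. Median GC content of the hairpin was 35.0% for the members (range 28.7% to 44.6%) and 49.3% for the other rows. The predicted fold paired a median of 78.4% of bases in the members and 73.5% in the others, and median hairpin length was 88 and 85 bases. Searched along the annotated strand, the letters GCAAAAGU occurred in 30 of 37 members (81.1%) and in 1 of 434 other rows (0.23%), which was mir-579, itself reported to derive from MADE1. The reverse complement of those letters, ACUUUUGC, occurred in 21 members (56.8%) and 1 other row, and 16 members held both. This 8-letter run was picked from these hairpins, where it was 1 of 3 that tied as the commonest. The others, GUGCAAAA and UGCAAAAG, also occurred in 30 members, and outside the family in mir-3064 and in mir-579 and mir-651.

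The tested members occupied 57 loci on 21 chromosomes, with 11 members at several loci. Of these loci, 28 lay in introns of a gene on the same strand, 10 in introns of a gene on the opposite strand and 19 outside any annotated gene. None of the 37 placed members had another tested miRNA within 10 kb on the same strand, whereas 102 of the 434 placed other rows had one. Among single-locus members, mir-548e lay in an intron of SHOC2 (chr10:110988926-110989013), mir-548b in an intron of FAM184A (chr6:119069047-119069143) and mir-548aq in an intron of IGF2BP2 (chr3:185767847-185767904). The row mir-548k came from an intron of PPFIA1 (chr11:70283955-70284070) and mir-548am from an intron of CTPS2 (chrX:16627012-16627085), while mir-548ay had no annotated host (chr3:32506283-32506389). Members mir-548c and mir-548z are read from opposite strands of 1 locus in an intron of RASSF3 (chr12:64622509-64622605), and mir-548d and mir-548aa likewise share their loci. The strand setting of the counting is not given in the sources used here, so these pairs are not independent rows.

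Library totals ran from 1318923 to 6222790 miRNA counts, with a median of 2299476.5, and the family contributed 1236 to 14673 counts per library from 44 to 53 detected members. For each clone the 2 libraries of an arm, control or ERH, were added together, which left 16 sums. The libraries of clone 57 lay at −14.5 to −10.1 on the second principal component of all tested rows, against −7.83 to 7.72 for the other clones. Values below are CPM, counts per 1000000 after TMM scaling, which assumes that most rows do not differ between sums. The libraries are of bulk RNA, so more cells making a miRNA cannot be told apart from more miRNA per cell.

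As a whole the family was least abundant in wild-type clones under control shRNAs and most abundant in deletion clones under ERH shRNAs. The family sum under control shRNAs was 1355, 1529, 1105 and 1154 CPM in wild-type clones 52, 55, 57 and 67 (mean 1286 ± 195, SD, n = 4). In deletion clones 30, 34, 42 and 43 it was 2751, 2476, 2512 and 3537 CPM (2819 ± 494, SD, n = 4). Every deletion clone thus lay above every wild-type clone, and the ratio of the means was 2.19. Under ERH shRNAs the wild-type clones reached 1740, 2716, 2488 and 2411 CPM (2339 ± 419, SD, n = 4), so the sum rose in each of them, by a mean ratio of 1.85 ± 0.43 (SD over clones). The deletion clones moved to 3113, 3652, 2646 and 3977 CPM (3347 ± 588, SD, n = 4), a mean ratio of 1.20 ± 0.19. Knockdown sums of wild-type clones overlapped control sums of deletion clones, and within the deletion clones the 2 arms overlapped. The sum of the 15 members under the count minimum had the same lowest and highest group, at 18.4 CPM in wild-type controls and 40.4 CPM in deletion clones under ERH shRNAs.

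The size of these ratios depended on the scaling. Scaled by total miRNA counts, the family stood at a mean of 996 CPM in wild-type controls, 2398 in wild-type knockdown, 3018 in deletion controls and 3922 in deletion knockdown. The mean wild-type knockdown ratio was then 2.45 and the deletion ratio under control shRNAs 3.03. Per spike-in count the same ratios were 3.31 ± 1.77 (SD over clones) and 3.03. Scaled by total miRNA counts, each single vector gave the same order of medians. Control shRNA_1 and control shRNA_2 gave 920.3 and 1025 in wild-type clones, shERH_1 and shERH_2 gave 2314 and 2515 there, the control vectors gave 3146 and 2735 in deletion clones, and the ERH vectors gave 3943 and 3976.

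**Figure D1:**
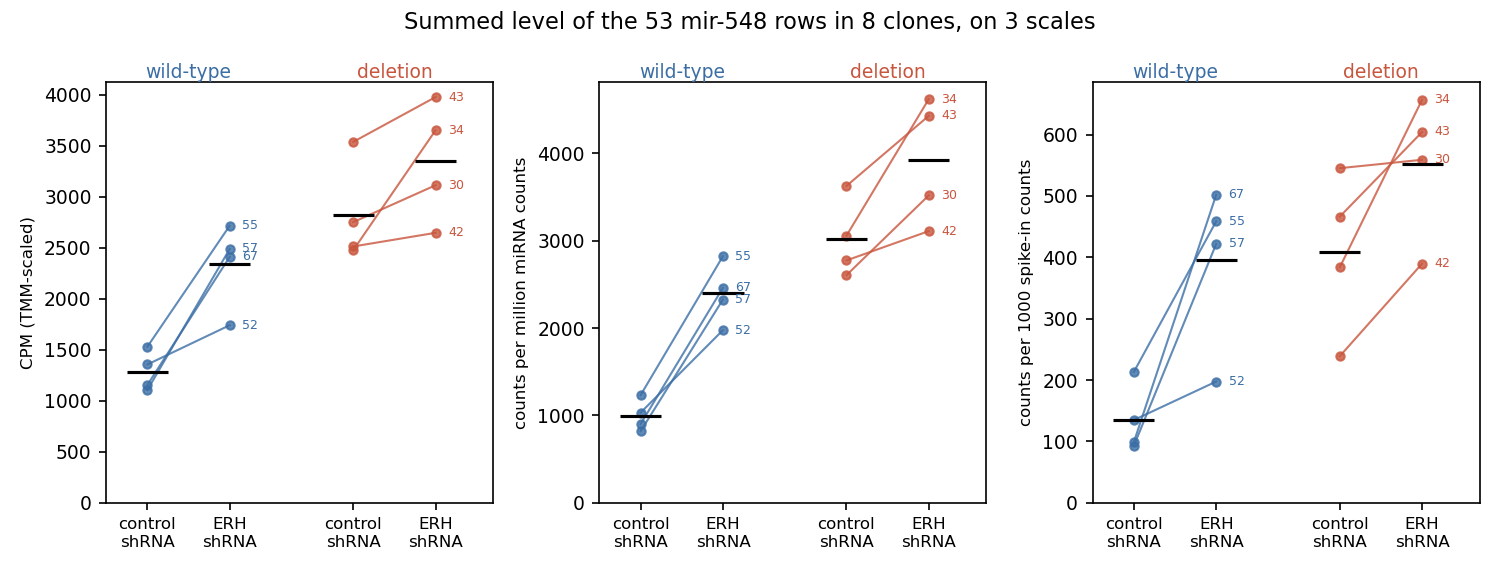
Summed level of the 53 mir-548 rows per clone by genotype and shRNA arm, in TMM-scaled CPM (left), scaled by total miRNA counts (middle) and per 1000 spike-in counts (right); points are clones, lines join the 2 arms of a clone and black bars are group means. On the left, wild-type controls lie between 1105 and 1529 CPM, and all deletion controls lie above them, from 2476 to 3537 CPM.

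Most of the family was higher in deletion clones when ERH was not targeted. With control shRNAs, 30 of 38 tested members were higher in deletion than in wild-type clones and 0 were lower when p-values of edgeR's quasi-likelihood test were adjusted over all 477 rows (Benjamini-Hochberg) with a threshold of 0.05. By the same test 19.9% of all tested rows were higher and 10.7% lower. The median log2 fold change was 1.20 over the members and −0.18 over the other rows, and the estimate was positive for all 38 members. All 4 deletion clones lay above all 4 wild-type clones for 30 members, against 19.7% of all rows, and no member showed the opposite order, which 11.9% of all rows did.

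The most abundant member, mir-548h, is summed over 5 loci. Under control shRNAs mir-548h stood at 161, 152, 144 and 141 CPM in wild-type clones 52, 55, 57 and 67 and at 307, 318, 274 and 354 CPM in deletion clones 30, 34, 42 and 43. The groups did not overlap, and edgeR gave a difference of 1.07 ± 0.20 on the log2 scale (SE, adjusted p = 0.009452). The SHOC2-intron member mir-548e stood at 108, 104, 64.0 and 127 CPM in the wild-type controls and at 209.8, 204, 221 and 385 CPM in the deletion controls. The difference was 1.34 ± 0.30 (log2, SE, adjusted p = 0.01054, edgeR), with clone 43 far above the other deletion clones.

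The FAM184A-intron member mir-548b, of the AAAGUAA group, stood at 132, 103, 91.8 and 117 CPM in wild-type and at 199, 187, 224 and 198 CPM in deletion controls. This was the smallest deletion difference among the 12 named members, 0.86 ± 0.22 (log2, SE, adjusted p = 0.0171, edgeR). The IGF2BP2-intron member mir-548aq, which carries both common seeds on its 2 arms, stood at 76.4, 71.6, 47.2 and 46.0 CPM in wild-type and at 146, 141, 116 and 157 CPM in deletion controls. Neither of these members had overlapping groups, and mir-548aq differed by 1.21 ± 0.26 (log2, SE, adjusted p = 0.01054, edgeR). The PPFIA1-intron member mir-548k stood at 32.3, 50.6, 50.4 and 34.0 CPM in wild-type and at 85.9, 99.2, 98.7 and 106 CPM in deletion controls, 1.22 ± 0.26 on the log2 scale (SE, edgeR adjusted p = 0.01054). Its deletion values were close to each other, while its wild-type values fell in a higher and a lower pair.

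The 7 other named members differed in the same direction, by 1.00 for mir-548ae to 1.38 for mir-548bc on the log2 scale, and none had overlapping groups. The RASSF3-intron member mir-548c stood at 67.7, 85.4, 39.8 and 46.8 CPM in wild-type and at 142, 123, 145 and 164 CPM in deletion controls. The hostless member mir-548ay stood at 55.2, 62.3, 52.6 and 47.1 CPM in wild-type and at 139.7, 104, 103 and 139.8 CPM in deletion controls. In both rows the lowest deletion clone was well above the highest wild-type clone. The 2-locus member mir-548o stood at 53.8, 70.1, 36.6 and 32.3 CPM in wild-type and at 127, 109.96, 112 and 148 CPM in deletion controls. The 2-locus member mir-548d stood at 58.4, 65.9, 47.9 and 43.4 CPM in wild-type and at 127, 102, 95.7 and 145 CPM in deletion controls. For both of these, clones 57 and 67 were the lowest of the wild-type group. The row mir-548bc, for which no GENCODE locus was matched, stood at 37.0, 49.0, 50.1 and 34.8 CPM in wild-type and at 99.5, 94.6, 85.3 and 164 CPM in deletion controls. The CTPS2-intron member mir-548am stood at 42.9, 52.7, 30.7 and 28.3 CPM in wild-type and at 105, 86.3, 86.6 and 112 CPM in deletion controls. Clone 43 was the highest deletion clone in both. The 2-locus member mir-548ae stood at 39.4, 53.5, 40.2 and 22.3 CPM in wild-type and at 86.6, 60.2, 64.0 and 99.5 CPM in deletion controls, the narrowest gap of the 7.

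The other members that passed were less abundant than the 12 named ones. Among them the largest differences were those of mir-548an, 1.67, and mir-548i, 1.64, and mir-548au, mir-548aj and mir-548aa had 1.64, 1.58 and 1.56 (log2). The rows mir-548t, mir-548u, mir-548g and mir-548l passed with estimates from 1.46 for mir-548l to 1.54 for mir-548t, and mir-548x, mir-548q, mir-548ac, mir-548n, mir-548ab, mir-548w, mir-548ag and mir-548as had estimates up to 1.19. The row mir-548c and its opposite-strand partner mir-548z had similar estimates, 1.26 ± 0.29 and 1.28 ± 0.35 (SE), and both passed the test. With the shRNA_1 libraries alone, 27 of 38 members passed, beside 17.4% of all rows higher, at a median log2 fold change of 1.42. With the shRNA_2 libraries alone, 4 of 38 members passed, beside 3.56% of all rows higher, at a median log2 fold change of 1.06.

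**Figure D2:**
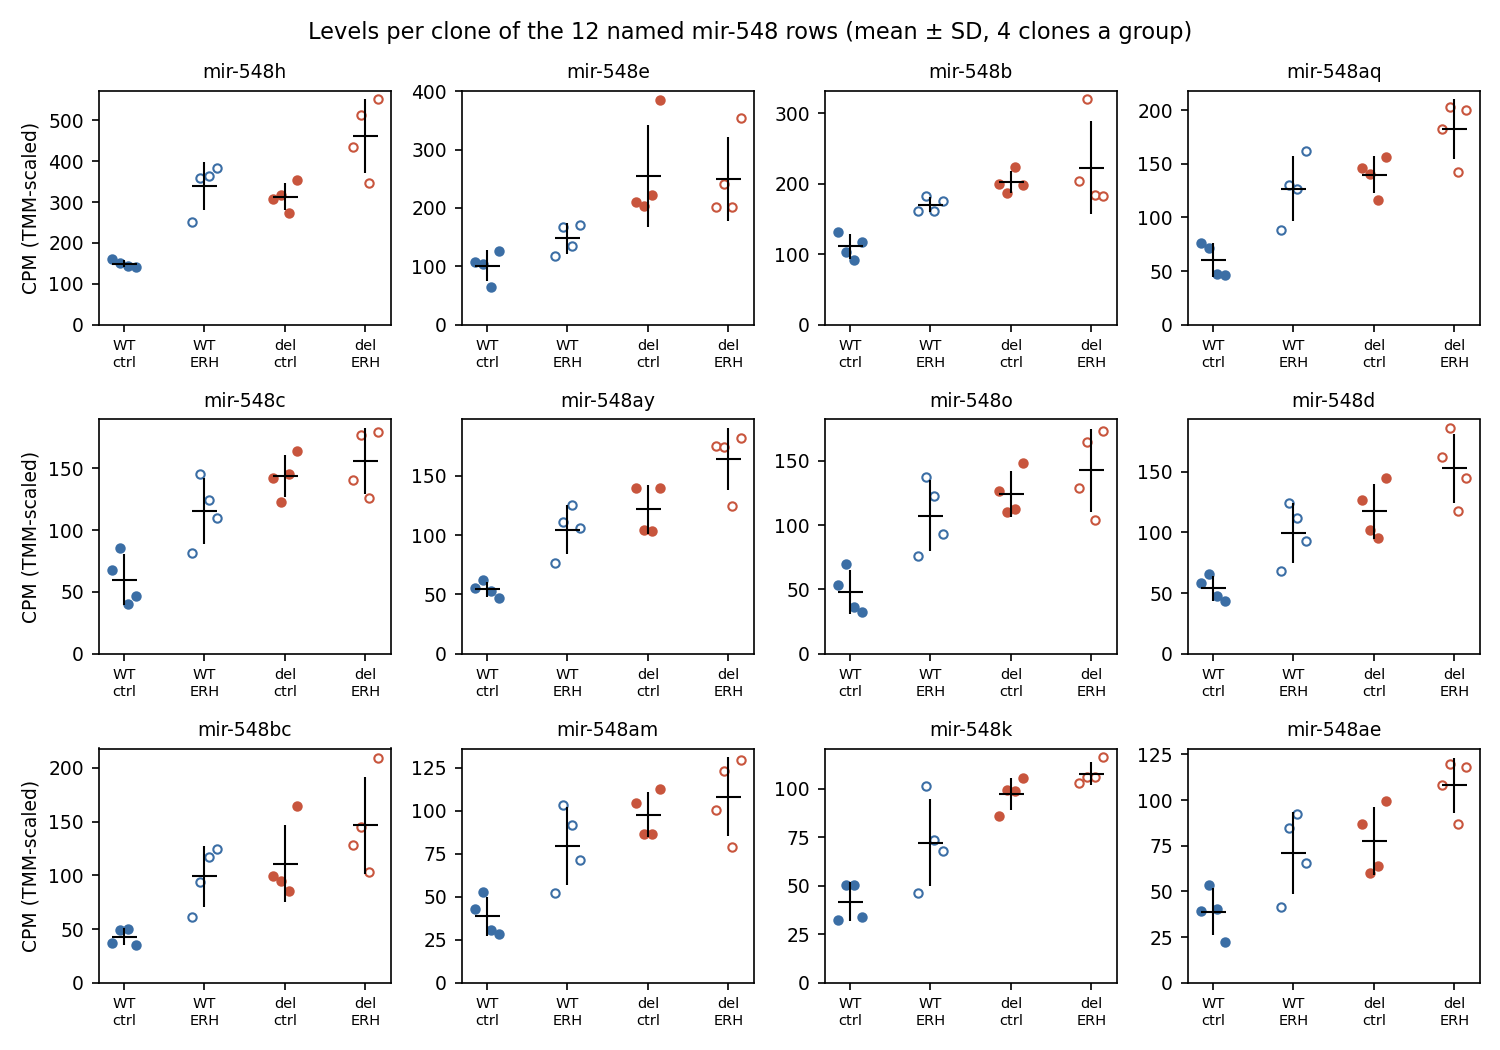
Levels of the 12 named members in TMM-scaled CPM, 1 point per clone, for wild-type (WT, blue) and deletion (del, red) clones under control (filled) and ERH (open) shRNAs, with the mean and SD of each group in black. For mir-548h the wild-type controls lie between 141 and 161 CPM and the deletion controls between 274 and 354 CPM.

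In wild-type clones most of the family rose under ERH shRNAs. Within these clones 26 of 38 members were higher and 0 lower under ERH shRNAs (edgeR with clone as a block, adjusted p under 0.05), beside 23.9% of all rows higher and 19.1% lower. The median log2 fold change of the members was 0.91, and 27 members had a higher value in each of the 4 clones, against 27.9% of all rows. Clone 52 had the smallest response, a median member change of 0.31 on the log2 scale, and clones 55, 57 and 67 had 0.95, 1.23 and 0.98. The medians of the other rows in these clones lay between −0.17 and −0.03. Without clone 57, 12 members passed the test, beside 11.5% of all rows higher. With the shRNA_1 libraries alone 25 members passed, beside 19.7% of all rows higher, at a median log2 fold change of 1.10. With the shRNA_2 libraries alone none passed, beside 1.26% of all rows higher, at a median log2 fold change of 0.80 with 35 of 38 estimates positive. The comparison uses the same wild-type control sums as the deletion comparison, so the 2 sets of calls are not independent.

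Under ERH shRNAs mir-548h reached 252, 358, 364 and 384 CPM in clones 52, 55, 57 and 67, above its own control value in every clone. That rise came to 1.17 ± 0.20 (log2, SE, adjusted p = 0.0003145, edgeR). The X-linked CTPS2-intron member mir-548am moved from 42.9, 52.7, 30.7 and 28.3 CPM to 51.9, 103, 91.4 and 71.3 CPM, 1.04 ± 0.24 on the log2 scale (SE, edgeR adjusted p = 0.00322). The response of clone 52 was the smallest of the 4 for both members. For mir-548bc the values moved from 37.0, 49.0, 50.1 and 34.8 CPM to 61.1, 93.4, 117 and 125 CPM, 1.18 ± 0.23 on the log2 scale (SE, edgeR adjusted p = 0.000948). The SHOC2-intron member mir-548e moved less, from the control values given above to 117, 168, 135 and 172 CPM, 0.58 ± 0.21 on the log2 scale (SE, edgeR adjusted p = 0.03426).

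In the deletion clones fewer members passed. ERH shRNAs gave 8 members higher and 0 lower of 38 (edgeR with clone as a block), beside 12.8% of all rows higher and 7.97% lower, and the median log2 fold change was 0.19. The median member change was 0.13 in clone 30, 0.48 in clone 34, 0.07 in clone 42 and 0.12 in clone 43, and 13 members had a higher value in all 4 clones, against 25.2% of all rows. The AAAGUAU-seed member mir-548l, singled out after its values were seen, moved from 45.8, 54.5, 33.0 and 78.9 CPM to 84.6, 90.8, 53.9 and 125 CPM. It rose in every deletion clone, by 0.75 ± 0.13 on the log2 scale (SE, edgeR adjusted p = 0.002988), and mir-548h rose by 0.54 ± 0.12 (SE, adjusted p = 0.009684). By contrast mir-548e gave −0.017 ± 0.12 (SE) and mir-548o 0.18 ± 0.14 (SE), and neither passed the test. The count of 8 was not stable, since leaving out clone 30, 34 or 42 left 1, 2 or 3 members, beside 1.68%, 13.2% or 7.97% of all rows higher.

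Over all 8 clones, 22 of 38 members rose and 0 fell under ERH shRNAs (edgeR with clone as a block), beside 27.3% of all rows higher and 21.2% lower. The median log2 fold change was 0.53 for the members and −0.07 for the other rows, and 11 members had a higher value in each of the 8 clones, against 17.4% of all rows. The estimates of mir-548l and mir-548h were 1.00 ± 0.16 and 0.85 ± 0.14 (SE). Of the members, 20 passed both this comparison and the deletion comparison under control shRNAs, and 10 passed the deletion comparison alone. The rows mir-548ad and mir-548y passed the knockdown comparison alone, and mir-548a, mir-548ap, mir-548az, mir-548f, mir-548j and mir-548v passed neither. Both comparisons use the same control sums, so their calls are not independent. The share of all rows that passed both was not counted, so the 20 have no background beside them. Without clone 55, 13 members passed, beside 21.6% of all rows higher, and each of the 2 vector pairs taken alone also gave 13, beside 17.6% and 17.8%.

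**Figure D3:**
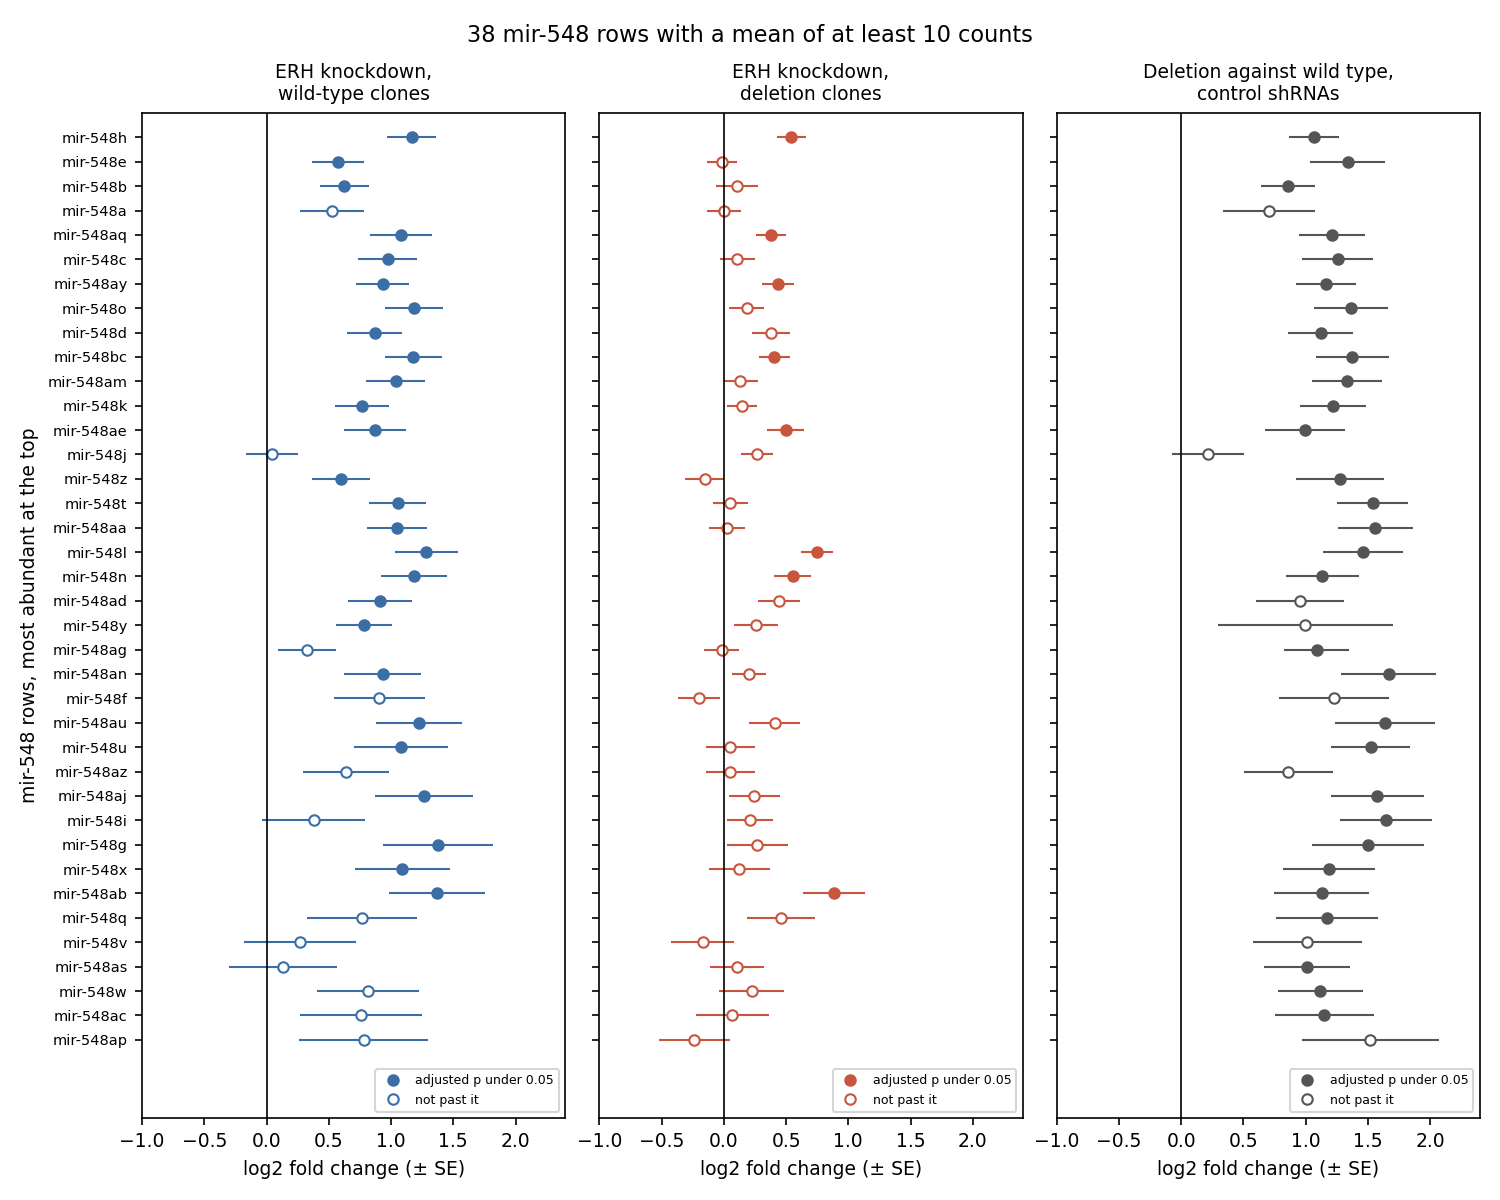
Log2 fold changes with standard errors of the 38 tested members, ordered by abundance, for ERH knockdown in wild-type clones, ERH knockdown in deletion clones and the deletion under control shRNAs; filled points passed the adjusted p of 0.05 and open points did not. All 38 deletion estimates are above 0, and the knockdown medians are 0.91 in wild-type and 0.19 in deletion clones.

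For 37 of 38 members the knockdown estimate in deletion clones lay under that in wild-type clones, with a median interaction of −0.62 on the log2 scale. No member passed the test of this difference at an adjusted p under 0.05 (edgeR, 0% of all rows), although 16 members had an unadjusted p under 0.05, among 109 of all 477 rows. DESeq2 called 5 members, all with a smaller response in the deletion clones, among 17 rows called in that direction and 6 in the other. The lowest adjusted p among the members was 0.09422 (edgeR), shared by mir-548t and mir-548aa, and the interaction of mir-548aa was −1.02 ± 0.27 (SE). The levels of mir-548t and mir-548aa were close, with means of 26.7 and 24.5 CPM in wild-type controls and 77.8 and 72.4 CPM in deletion controls. No mature sequence was matched for mir-548aa, and whether the 2 rows share reads was not tested. Scaling by total miRNA counts gave 13 members among 43 rows in that direction, leaving out clone 52 gave 9 among 23, and leaving out clone 67 gave 2 among 3. The contrast is built from the same sums as the comparisons above and adds no independent samples.

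Under ERH shRNAs the genotypes were closer to each other. No member passed the deletion test in this arm (edgeR, 0% of all rows), 15 had an unadjusted p under 0.05, among 73 of all 477 rows, and DESeq2 also called 0. All 38 estimates were positive, with a median log2 fold change of 0.55, and all deletion clones lay above all wild-type clones for 11 members, against 9.01% of all rows. For mir-548h the deletion clones stood at 435, 514, 346 and 551 CPM beside the wild-type knockdown values given above, so the groups overlapped through clone 42. The difference was 0.44 ± 0.22 (SE, log2). The widest estimate was that of mir-548i, at 1.44 ± 0.38 (SE, log2, adjusted p = 0.1377, edgeR), followed by mir-548an, in an intron of CXorf57, at 1.02 ± 0.27 (SE).

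The 2 control vectors give the background of these comparisons. Between control shRNA_2 and control shRNA_1 no member passed (edgeR with clone as a block, 0% of all rows), 2 had an unadjusted p under 0.05, among 48 of all 477 rows, and DESeq2 called 0. The median log2 fold change was 0.05, with 23 estimates positive and 15 negative. For mir-548h this difference was 0.10 ± 0.13 (SE) and for mir-548e −0.09 ± 0.13 (SE).

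Not every abundant member passed the tests, and 3 such rows were singled out after their values were seen. The row mir-548a, the fourth most abundant at a mean of 335.6 counts, is summed over several loci. It stood at 93.5, 149.7, 55.2 and 73.9 CPM in wild-type controls and at 167, 99.5, 109 and 233 CPM in deletion controls. The groups overlapped, and the difference was 0.71 ± 0.37 (log2, SE, adjusted p = 0.1598, edgeR), while the knockdown over all clones gave 0.25 ± 0.17 (SE, adjusted p = 0.227). The TPST2-intron member mir-548j (chr22:26555212-26555323) carries the same 2 seeds as mir-548aq and has the highest hairpin GC content of the tested members, 44.6%. It stood at 49.7, 79.7, 64.7 and 55.1 CPM in wild-type controls and at 46.0, 89.7, 75.6 and 77.9 CPM in deletion controls. These groups overlapped, differing by 0.22 ± 0.29 on the log2 scale (SE, edgeR adjusted p = 0.5666), and the knockdown over all clones gave 0.16 ± 0.14 (SE, adjusted p = 0.3449). The last of these rows was mir-548y, which has no annotated host (chr14:47760995-47761104). It stood at 14.4, 38.1, 35.8 and 21.1 CPM in wild-type controls and at 33.9, 25.3, 8.58 and 151 CPM in deletion controls, so that clone 43 alone carried its positive estimate, and without clone 43 the log2 fold change was −0.27. Under ERH shRNAs mir-548y did rise, by 0.78 ± 0.23 in wild-type clones (log2, SE, adjusted p = 0.012, edgeR) and by 0.53 ± 0.16 over all clones (SE, adjusted p = 0.01229).

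Both common seed groups, drawn from the matched mature sequences only, held rows that passed and rows that did not. Among the 8 rows with the seed AAAGUAA, 5 passed the deletion test and 4 the knockdown test over all clones, with median log2 fold changes of 1.06 and 0.42, and the deletion estimates ran from 0.22 to 1.52. Among the 6 rows with AAAAACU, 5 and 4 passed, with medians of 1.20 and 0.62. Among the matched sequences, those of mir-548j and mir-548aq held both seeds, and arms without a sequence could not be placed in a group. The place of the hairpin gave similar medians, since 17 single-locus members in same-strand introns had a median deletion difference of 1.22 (15 passed) and 7 single-locus members without a host had 1.13 (3 passed). The members without a host had a lower median count, 36.0 against 138.

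Other hairpins of repeat origin were taken from lists drawn up from memory with earlier results of these data known. Of 3 MADE1-derived miRNAs named otherwise, 2 were tested, and mir-603 had too few counts. The row mir-579, which shares the GCAAAAGU run, lay between 13.2 and 22.6 CPM in the 4 wild-type controls and between 38.04 and 62.3 CPM in the 4 deletion controls, and the difference of 1.38 ± 0.30 (log2, SE, adjusted p = 0.01054, edgeR) passed the test. Its relative mir-570 gave 0.45 ± 0.39 (SE) there and did not pass, but it rose under ERH shRNAs over all clones by 0.52 ± 0.20 (SE, adjusted p = 0.0387). Of 12 miRNAs reported from other repeats, 8 were tested. None of the 8 rose in either comparison, 1 was lower in deletion controls (median log2 fold change −0.23) and 2 fell under ERH shRNAs over all clones (median −0.04).

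Low GC content moved with the same comparisons outside the family. When the tested rows were cut into 4 classes of equal size by hairpin GC content, 32 members and 86 other rows lay in the lowest class, 20.3% to 39.2%. In deletion controls, 26 of these members and 29 of these other rows were higher, with medians of 1.22 and 0.69. Under ERH shRNAs in wild-type clones, 22 members and 38 other rows rose, with medians of 0.91 and 0.72. The other rows of the remaining classes had medians between −0.31 and −0.14 in these 2 comparisons. After a smooth correction of every sum for hairpin GC content, 7 of 37 members passed the deletion test and 9 the wild-type knockdown test, beside 9.55% and 15.7% of all 471 rows higher. When the curve was fitted on the other rows only, 14 and 15 members passed, beside 12.3% and 19.1% of rows. Median log2 fold changes after the first correction were 0.55 and 0.50, and 37 of 37 deletion estimates stayed positive. The part of GC content in the differences was not tested further.

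Abundance and isolation from other miRNAs also moved with the comparisons. Among other rows with a mean count up to that of mir-548h, 58 of 303 (19.1%) were higher in deletion controls, and of the more abundant rows 7 of 136 (5.15%). Among other rows without a tested neighbour on the same strand within 10 kb, 63 of 332 (19.0%) were higher there, with a median of 0.02, and among those with one, 1 of 102 (0.980%), with a median of −0.49. Of the members, 30 of 38 (78.9%) were higher, and the 37 with a locus had no such neighbour. For the wild-type knockdown the corresponding shares were 26.7% of rows up to that count, 25.9% of rows without a neighbour and 68.4% of members.

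**Figure D4:**
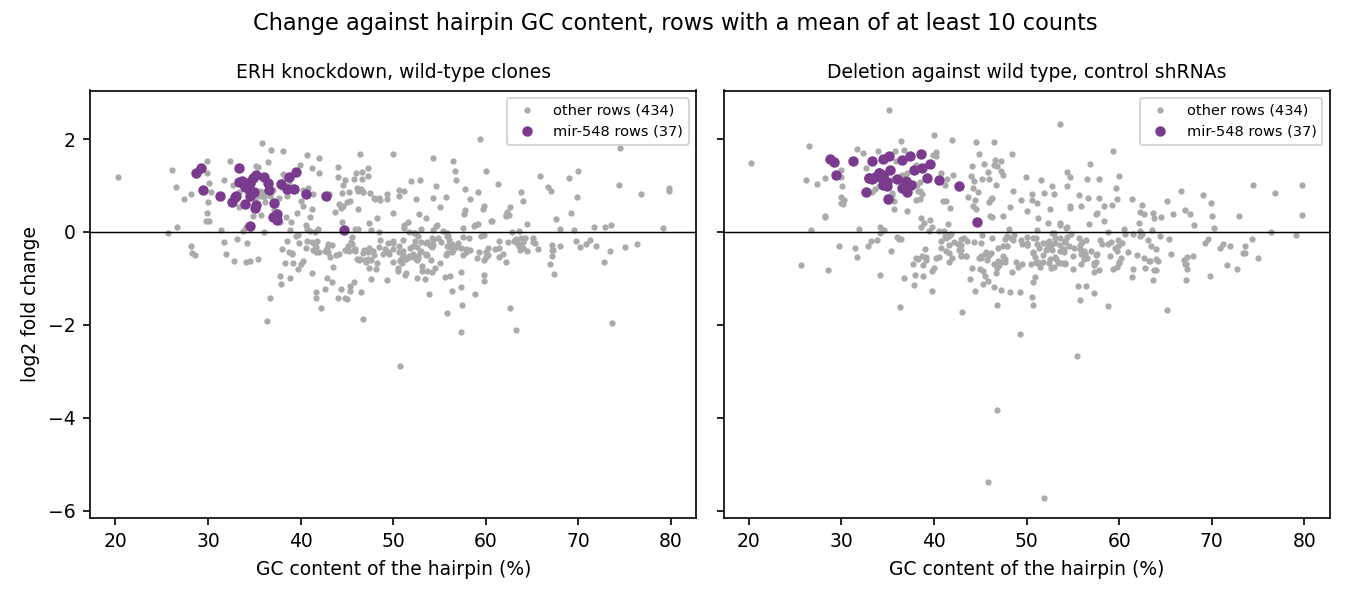
Log2 fold change against hairpin GC content in percent for 37 tested members (purple) and 434 other tested rows (grey), in the wild-type knockdown and in deletion controls against wild-type controls. Members lie between 28.7% and 44.6% GC, and the other rows of the lowest GC class have medians of 0.72 and 0.69.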

How the data were processed

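Small RNA was measured in 32 libraries of 293T clones (QIAseq miRNA kit, 4 spike-in RNAs, per the labels' protocols). The deposited table holds whole-number read counts per hairpin name, not normalized by the authors. SAMtools is the tool named in the submitters' processing notes; the aligner, build, strand setting and any use of molecular identifiers are not given in the sources used here. Without identifiers, amplification copies would widen the counting error. Counts of the 2 vectors of an arm were summed per clone and tested with edgeR 4.0.16 (TMM, quasi-likelihood, Benjamini-Hochberg over 477 rows with a mean of at least 10 counts, threshold 0.05). Clone was a block in the knockdown, interaction and control-vector tests, because the arms share a clone (r of 0.39 to 0.76 between the deviations of a clone's arms). DESeq2 1.42.0, other scalings, filters, GC correction, single vectors and left-out clones were alternatives. Genotypes were compared as 4 against 4 clones. The smallest chi-square per degree of freedom over 48 pairs of libraries of a group was 48.9, so none was a copy. Values per clone are given for the 12 most abundant members that passed the deletion test under control shRNAs or the knockdown test over all clones. RefSeq entries on chromosome 8 were left out of the matching. The members with a locus there, mir-548h among them, had no matched sequence, and whether RefSeq holds one was not examined. Hairpins were folded with ViennaRNA 2.7.2. Scripts were tested on simulated data. Members and lists were chosen with earlier results of these data known.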

Additional observations from a re-analysis of the deposited data

Results flagged for a closer look

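In 3 of 56 groups of 4 clones (the 12 named members and the family sums, by genotype and arm) 1 clone lay apart by Dixon's test, and chance gives about 1 in 20 such groups. For mir-548e in deletion controls, clone 43 stood at 385 CPM, beside 204, 209.8 and 221 CPM in the others. For mir-548b in deletion clones under ERH shRNAs, clone 34 stood at 321 CPM, beside 183, 184 and 204 CPM. For mir-548ay in deletion clones under ERH shRNAs, clone 42 stood at 125 CPM, below 174.5, 175 and 182 CPM in the others.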

How the results depend on the processing

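The main counts of members passing were 22 for the knockdown over all clones, 26 in wild-type clones, 8 in deletion clones, 30 for the deletion under control shRNAs and 0 for the interaction. GC correction gave 13, 9, 4 and 7 for the first 4, beside 21.7%, 15.7%, 8.28% and 9.55% of all rows higher. With the curve fitted on other rows, chosen after seeing the data, it gave 13, 15, 4 and 14, beside 22.7%, 19.1%, 7.86% and 12.3%. Without the replicate block the 3 knockdown counts were 2, 11 and 0, beside 2.94%, 8.81% and 0% of all rows higher. The pairing by clone changed no other count of members. The shRNA_1 libraries alone gave 13 members over all clones and 25 in wild-type clones, beside 17.6% and 19.7% of all rows higher. They gave 1 in deletion clones and 27 for the deletion, beside 7.97% and 17.4%. For the interaction they gave 10, beside 27 rows higher and 22 lower. The shRNA_2 libraries alone gave 13 over all clones and 0 in wild-type clones, beside 17.8% and 1.26%. They gave 1 in deletion clones and 4 for the deletion, beside 2.31% and 3.56%. In deletion clones DESeq2 gave 5, filterByExpr 3 of 49 members and no filter 5 of 53, beside 9.22%, 4.49% and 4.37% of rows higher. For the interaction DESeq2 gave 5, total miRNA scaling 13 and no filter 8 of 53 members, among 17, 43 and 19 rows lower. Leaving out 1 clone gave 13 to 24 members over all clones, beside 21.6% to 29.8% of all rows higher. In wild-type clones it gave 12 to 28, beside 11.5% to 22.9%, and in deletion clones 1 to 6, beside 1.68% to 13.2%. For the deletion it gave 21 to 30, beside 13.6% to 21.8%, and for the interaction 0 to 9, among 0 to 23 rows lower. The deletion under ERH shRNAs and the control vectors had 0 members in every alternative run. Spike-in and total scaling moved the median of all rows to 0.62 and 0.35 in the wild-type knockdown. In the deletion comparison they moved it to 0.40 and 0.37, and 35 and 36 members passed, beside 27% and 30.4% of all rows higher. In the knockdown over all clones and in the deletion under control shRNAs, no called member changed sign in any alternative, while 10 of 16 and 1 of 8 members not called did. Among those, GC correction turned the knockdown estimates of mir-548e and mir-548a to −0.017 and −0.040, and for the deletion mir-548y gave −0.27 without clone 43 and up to 1.48 without another clone. In the knockdown over all clones mir-548h passed in every alternative. In the deletion comparison mir-548aa, mir-548an and mir-548t did, where mir-548aa and mir-548t had close levels and may not be independent rows. The cause of these changes was not tested. The lowest counts limit members near the minimum, and 4 clones per genotype limit the deletion tests.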
